A study of Mus musculus with 3 samples.

Results

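The genes described here encode G protein-coupled receptors for hormones and transmitters, measured in GFP-positive bone marrow cells of C57BL/6 mice. The list named 56 receptors, grouped by ligand class. A gene was assessed where at least 4 probesets of the array (short sets of probes, mostly one exon or part of one) carried its symbol and no other, and 50 of the 56 met this, among 18865 genes in all. Htr1b (3 probesets), Bdkrb1 (2 probesets), Ednra, Adora1, Adora2a and Adora2b (0 probesets each) were not assessed. Probeset values, on the log2 scale, were summarised for each gene and array by their median.

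The study placed RNA from these cells on 3 arrays of 1 group, numbered 1 to 3 as in the sample titles, with no control group among the samples used here. GFP in these mice is driven by the nestin gene promoter, and the cells were sorted straight from marrow by flow cytometry. The sort follows the reporter, so any marrow cell in which this promoter is active could be collected. Nothing in the labels ties the samples to separate mice or sorts. Each p-value therefore reflects spread among these 3 samples alone, in part that of all genes, and that spread may be technical. In bulk RNA, fewer cells of a type and less RNA per cell cannot be told apart.

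G protein-coupled receptors sit in the plasma membrane and, once a ligand binds, activate heterotrimeric G proteins inside the cell. Gs raises cyclic AMP through adenylyl cyclase, Gi lowers it, Gq activates phospholipase C beta and calcium release, and G proteins of the G12 family act on the cytoskeleton. In marrow, sphingosine 1-phosphate guides the exit of blood cells into the circulation, and prostaglandins, nucleotides and sympathetic transmitters are known to act on stromal cells and on stem cells.

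With no second group, each gene was set against receptors that marrow cells should lack. The background was 355 olfactory, vomeronasal and bitter taste receptor genes on the same arrays, themselves G protein-coupled receptors. Its 95th percentile gave thresholds of 5.40, 5.66 and 5.64 on arrays 1, 2 and 3. A gene was called when limma's one-sided test of its value minus the threshold had a Benjamini-Hochberg adjusted p below 0.05 over all 18865 genes. A stricter threshold, the 95th percentile of 28 genes of hepatocytes, photoreceptors and spermatids, stood at 7.27, 7.14 and 6.96 on arrays 1, 2 and 3. With only genes of at least 8 probesets kept, it was 5.51, 5.43 and 5.42. Probes differ in affinity, so no order of levels between genes is given.

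For each marker list below, the share to set beside its count is the 50.6% of all genes that were called. The perivascular stroma markers listed for this check were called in 11 of 13 cases. Among them the leptin receptor gene Lepr had 11.39, 11.50 and 11.27 on arrays 1, 2 and 3. Nes, the gene of nestin, had 5.97, 5.21 and 5.56 and was not called (adjusted p = 0.757, limma). Leukocyte markers were called in 3 of 12 cases, and Ptprc, the gene of CD45, had 4.54, 4.37 and 5.14. Endothelial markers were called in 13 of 16 cases, smooth muscle and pericyte markers in 8 of 11, osteoblast markers in 9 of 10 and macrophage markers in 3 of 12. Neutrophil markers were called in 8 of 10 cases, and the log2 of their summed linear level was 10.75, 10.81 and 11.58 on arrays 1, 2 and 3; their part in the receptor values was not tested.

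Of the 50 receptors, 17 (34.0%) lay above the chemosensory background, where 50.6% of all genes did. The 4 receptors that also passed the other-tissue threshold were S1pr1, S1pr3, Lpar4 and P2ry14, where 15.0% of all genes passed. A further 47 receptors of the same ligand classes that are not on the list gave 11 calls (23.4%), and the background genes themselves gave 9 of 355 (2.54%). Of the 28 hepatocyte, photoreceptor and spermatid genes, 4 (14.3%) were called above the chemosensory background. These 4, named after their values were seen, were Apoa2, Rom1, Prm1 and Prm2, with margins from 1.01 to 1.69. The median margin over the threshold was 0.10 for the 50 receptors and 0.50 for all genes. By array, 18 receptors lay above the chemosensory threshold on all 3 arrays, where 55.0% of all genes did, 13 lay above it on some arrays and 19 on none. All 17 called receptors were among the 18, and the other was Ptger1.

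**Figure D1:**
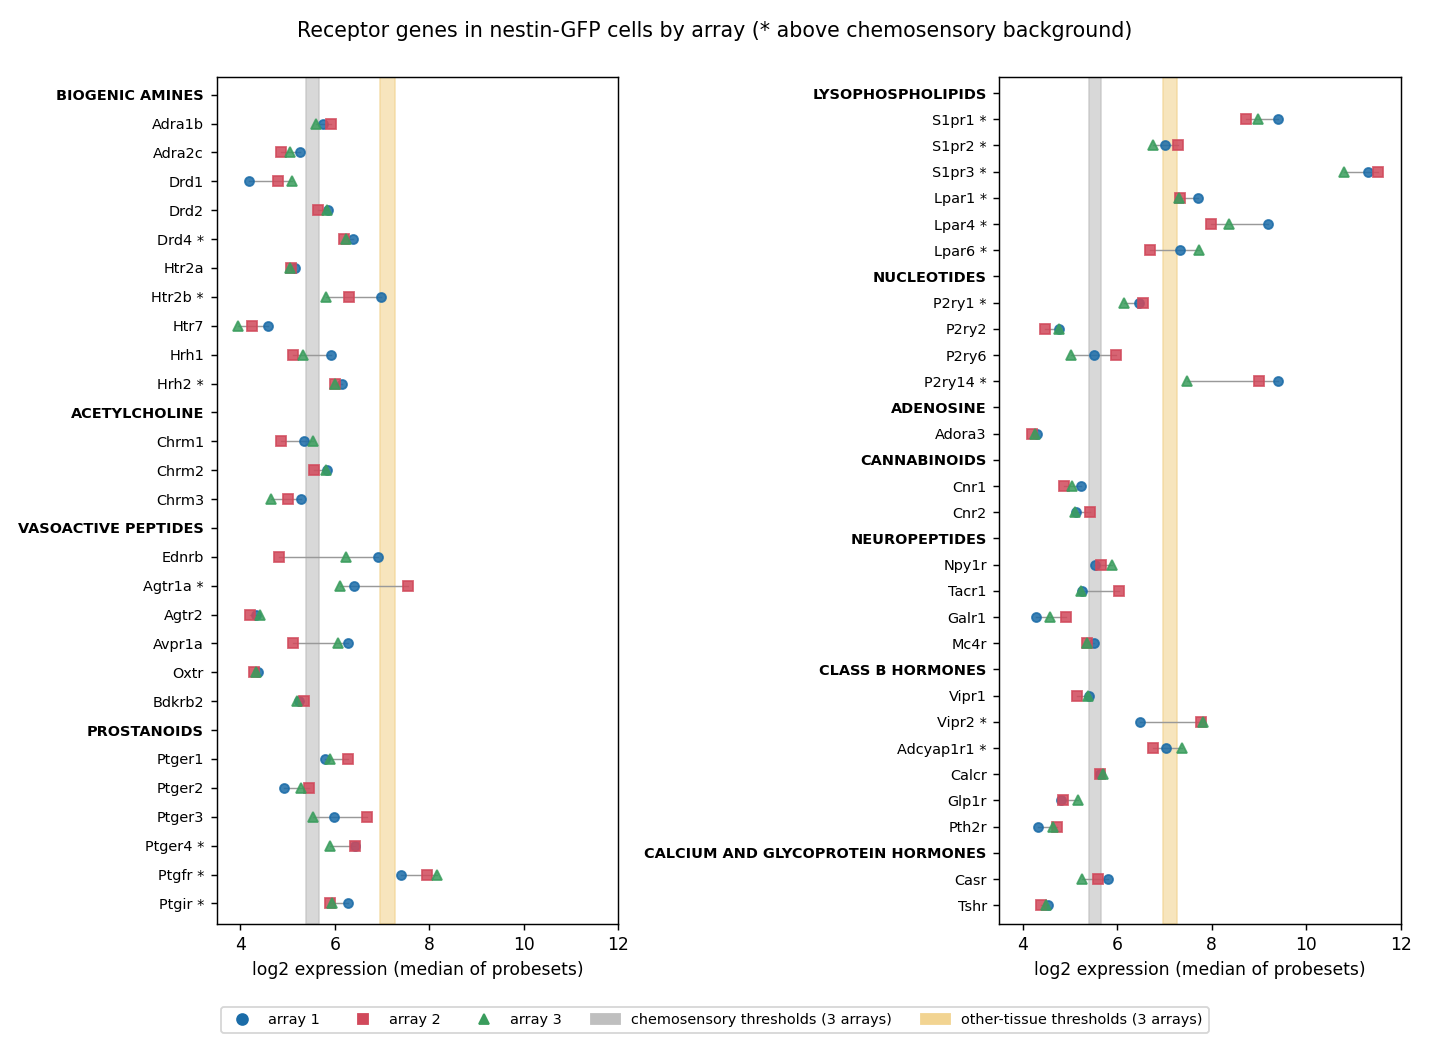
Log2 expression of the 50 receptor genes on each of the 3 arrays, by ligand class; each point is the median of a gene's probesets on 1 array, and stars mark the 17 genes above the chemosensory background by limma. The grey band spans the chemosensory thresholds of the 3 arrays (5.40 to 5.66) and the yellow band the other-tissue thresholds (6.96 to 7.27); the 6 lysophospholipid receptors all lie right of the grey band.

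All 6 assessed lysophospholipid receptors of the list were called, where 50.6% of all genes were. These receptors bind sphingosine 1-phosphate (S1pr genes) or lysophosphatidic acid (Lpar genes), lipids that cells release from membrane precursors and that blood plasma carries. The class kept 6 of 6 calls without any 1 of the arrays. Its median margin over the threshold was 2.41 on the log2 scale. With the 99th percentile of the background genes as threshold, 4 of the 6 were called, S1pr1, S1pr3, Lpar1 and Lpar4. The count does not extend to every receptor of these lipids. Outside the list S1pr5 was called (7.24, 7.38 and 7.27), while Lpar2 (5.04 ± 0.58, SD, n = 3) and Lpar3 (4.73 ± 0.12), picked out after their values were seen, were not.

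S1pr3, which couples to Gi, Gq and the G12 family, had 11.31, 11.52 and 10.80 on arrays 1, 2 and 3. Its mean was 11.21 ± 0.37 (SD, n = 3), with a margin of 5.65 over the threshold and an adjusted p of 2.87e-07 in limma. All 6 of its probesets lay above the threshold on all 3 arrays, the lowest with a mean of 8.72 and the highest with 11.81. S1pr1, the Gi-coupled receptor that lymphocytes and endothelial cells use to sense the lipid, had 9.41, 8.72 and 8.97, with 9.03 ± 0.35 and again 6 of 6 probesets above the threshold (adjusted p = 2.45e-06, limma). Array 2 was its lowest array, and its values stayed above both thresholds on each array. S1pr2, which signals mainly through the G12 family, had 7.00, 7.29 and 6.76, averaging 7.02 ± 0.27 (adjusted p = 0.00015, limma). Only 3 of its 6 probesets lay above the threshold on all 3 arrays, and their means ran from 3.74 to 9.33.

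Among the lysophosphatidic acid receptors, Lpar4 and Lpar6 had ranges above 1 over the arrays and Lpar1 did not. Lpar1, the broadly expressed member of the family, had 7.72, 7.33 and 7.30 on arrays 1, 2 and 3, with a mean of 7.45 ± 0.23 (SD, n = 3; adjusted p = 4.52e-05, limma) and 8 of 11 probesets above the threshold. Lpar4 had 9.20, 7.97 and 8.37, averaging 8.51 ± 0.62, with 6 of 7 probesets above (adjusted p = 2.00e-05, limma). Lpar6 had 7.33, 6.69 and 7.73, averaging 7.25 ± 0.52, with 6 of 9 probesets above (adjusted p = 0.000214, limma). Lpar4 and Lpar6 belong to a branch of the receptor family nearer to nucleotide receptors than to Lpar1, and both were lowest on array 2. Lpar6 lies inside Rb1 in the RefSeq gene table, and Rb1 had 7.89, 7.94 and 8.27 on the same arrays and was called. Whether the Rb1 transcript adds to the Lpar6 signal was not tested.

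**Figure D2:**
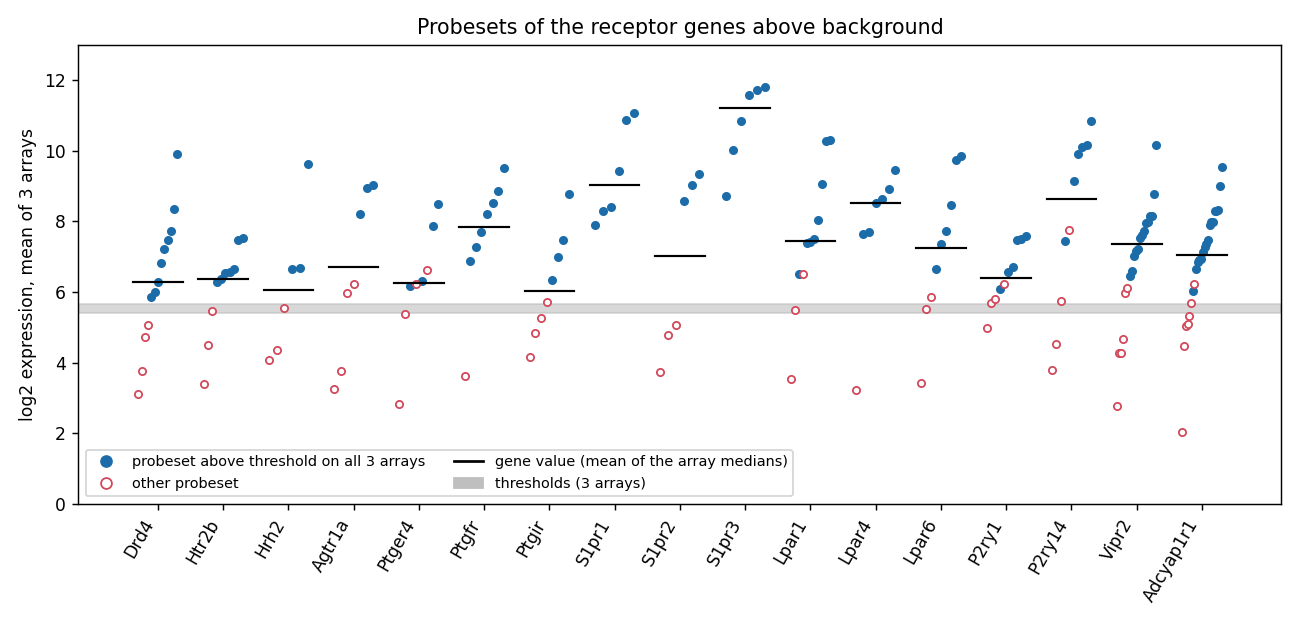
Probesets of the 17 receptor genes above background, each point the mean log2 expression of 1 probeset over the 3 arrays and each bar the mean of the gene's array medians; filled points lay above the chemosensory threshold on all 3 arrays (grey band). All probesets of S1pr1 and S1pr3 are filled, while Hrh2 and S1pr2 have 3 of 6 filled, Agtr1a 3 of 7, and Ptger4 and Ptgir 4 of 8.

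Prostanoid receptors were called in 3 of 6 cases, a share near the 50.6% of all genes. They bind the products of cyclooxygenase, the enzyme that starts prostaglandin synthesis from arachidonic acid. Ptgfr, the Gq-coupled receptor of prostaglandin F, had 7.41, 7.96 and 8.16 on arrays 1, 2 and 3, with a mean of 7.84 ± 0.38 (SD, n = 3; adjusted p = 9.46e-06, limma). In Ptgfr 7 of 8 probesets lay above the chemosensory threshold on all 3 arrays, and its gene values exceeded the other-tissue threshold on all 3 arrays without passing that test (adjusted p = 0.0562, limma). Ptger4, a Gs-coupled receptor of prostaglandin E, had 6.43, 6.43 and 5.89 (adjusted p = 0.0127, limma), and without array 1 it was not called (adjusted p = 0.0703, limma). Ptgir, the Gs-coupled prostacyclin receptor, had 6.28, 5.90 and 5.94 (adjusted p = 0.0484, limma). Its call was lost without any 1 of the arrays, with adjusted p values of 0.174, 0.0558 and 0.0761 in limma without arrays 1, 2 and 3.

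The other 3 receptors of prostaglandin E spanned both sides of the threshold. Ptger1, coupled to Gq and calcium, had 5.79, 6.27 and 5.90 and lay above the threshold on all 3 arrays without passing the test (adjusted p = 0.0505, limma). Ptger3, which lowers cyclic AMP through Gi, had 5.99, 6.67 and 5.53 (adjusted p = 0.0685, limma), with array 3 below its threshold. Without array 3, Ptger3 was called (adjusted p = 0.0156, limma). Ptger2, Gs-coupled like Ptger4, had 4.92, 5.46 and 5.28, below the threshold on each array. Outside the list, and picked out after their values were seen, the prostanoid receptor genes Ptgdr2 (mean 6.71) and Tbxa2r (mean 6.35) were called. Ptgdr (mean 3.45) was not.

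Among 4 receptors for nucleotides and nucleotide sugars, P2ry14 and P2ry1 were called, a share near the 50.6% of all genes. P2ry14, the receptor of UDP-glucose, had 9.39, 8.99 and 7.48 on arrays 1, 2 and 3, averaging 8.62 ± 1.01 (SD, n = 3; adjusted p = 7.26e-05, limma). Array 3 was lowest, yet it still lay above both thresholds. P2ry14 lies inside Med12l, which had 7.03, 6.74 and 6.50 and was also called. Whether the Med12l transcript adds to the P2ry14 signal was not tested. P2ry1, the Gq-coupled ADP receptor known from platelets, had 6.46, 6.55 and 6.15, with 6 of 10 probesets above the threshold (adjusted p = 0.00379, limma). P2ry2, the ATP and UTP receptor, stood below the threshold on all 3 arrays (4.67 ± 0.18), although 3 of its 8 probesets lay above it and the highest reached a mean of 9.32. The UDP receptor P2ry6 averaged 5.50 ± 0.47. Adora3, the only adenosine receptor assessed, had 4.24 ± 0.05 and was not called; it lies inside Tmigd3 in the RefSeq gene table.

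Class B receptors, which bind peptide hormones through a large extracellular domain, gave 2 calls among 6 genes (33.3%, beside 50.6% of all genes). Adcyap1r1, the receptor of the neuropeptide PACAP, had 7.04, 6.75 and 7.38 on arrays 1, 2 and 3 (7.05 ± 0.32, SD, n = 3; adjusted p = 0.000165, limma), with 17 of 24 probesets above the threshold. Vipr2, which binds PACAP and vasoactive intestinal peptide, had 6.47, 7.77 and 7.82 (7.35 ± 0.76; adjusted p = 0.000197, limma), with 14 of 20 probesets above. Both couple to Gs. Array 1 was the low one for Vipr2 and array 2 for Adcyap1r1. Vipr1, the paralogue of Vipr2 that binds the same peptides, had 5.39, 5.15 and 5.39, below the threshold on each array. The calcitonin receptor gene Calcr, which osteoclasts express, had 5.65 ± 0.04 (adjusted p = 0.523, limma). Glp1r, the receptor of the gut hormone GLP-1, had 4.94 ± 0.20, and Pth2r, of the parathyroid hormone receptor family, had 4.56 ± 0.21. Outside the list Pth1r, of the same family and picked out after its values were seen, had 7.45, 6.85 and 6.88. It was called (adjusted p = 0.000288, limma), as were Sctr and Crhr1, while Gipr, Gcgr, Crhr2 and Glp2r were not.

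Receptors of vasoactive peptides gave 1 call among 6 genes (16.7%, beside 50.6% of all genes). Agtr1a, the Gq-coupled angiotensin receptor of vascular smooth muscle, had 6.41, 7.55 and 6.12 on arrays 1, 2 and 3 (6.69 ± 0.75, SD, n = 3; adjusted p = 0.00392, limma). It was highest on array 2, and 3 of its 7 probesets lay above the threshold on all 3 arrays. Agtr2, the second angiotensin receptor, had 4.31 ± 0.11 with 0 of 7 probesets above. The oxytocin receptor gene Oxtr had 4.33 ± 0.04 with 0 of 4 probesets above, and the bradykinin receptor gene Bdkrb2 had 5.27 ± 0.07. Of receptors outside the list, picked out after their values were seen, Agtr1b had 5.92, 6.39 and 6.22 and was called (adjusted p = 0.0106, limma). Avpr2 (mean 5.17) was not.

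Ednrb and Avpr1a differed between arrays more than they differed from the threshold. Ednrb, the endothelin receptor that endothelial cells and neural crest derivatives express, had 6.91, 4.81 and 6.23 on arrays 1, 2 and 3 (adjusted p = 0.268, limma). Avpr1a, the vasopressin receptor of smooth muscle and liver, had 6.29, 5.11 and 6.07 (adjusted p = 0.328, limma). Both lay below the threshold on array 2 only. Without array 2 both were called, with adjusted p values of 0.00084 for Ednrb and 0.0349 for Avpr1a in limma. The class then had 3 calls. In the fit without array 2, limma gave every gene 1 common variance, so these p-values do not reflect either gene's own spread.

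The biogenic amine receptors, which bind catecholamines, serotonin and histamine, gave 3 calls among 10 genes (30.0%, beside 50.6% of all genes). The 3 called genes had margins of 0.80 or less. Drd4, a Gi-coupled dopamine receptor, had 6.39, 6.21 and 6.24 on arrays 1, 2 and 3 (6.28 ± 0.10, SD, n = 3; adjusted p = 0.0066, limma), with 9 of 13 probesets above the threshold. Htr2b, the Gq-coupled serotonin receptor known from heart valve and other mesenchymal cells, had 6.99, 6.30 and 5.81 (6.37 ± 0.59; adjusted p = 0.0198, limma). Without array 1 it was not called (adjusted p = 0.111, limma). Htr2b lies inside Psmd1, a proteasome subunit gene that had 9.41, 9.01 and 9.02. Whether the Psmd1 transcript adds to the Htr2b signal was not tested. Hrh2, the Gs-coupled histamine receptor of gastric parietal cells, had 6.15, 6.00 and 6.00 (adjusted p = 0.0342, limma). This call was lost without any 1 of the arrays, with adjusted p values of 0.103, 0.0712 and 0.0752 in limma without arrays 1, 2 and 3.

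The remaining amine receptors were not called. The adrenergic receptor genes Adra1b and Adra2c had 5.76 ± 0.16 and 5.06 ± 0.21 (SD, n = 3). Among dopamine receptors Drd2 had 5.78 ± 0.11 (adjusted p = 0.252, limma) and Drd1, listed under its former symbol Drd1a, had 4.69 ± 0.46. The serotonin receptor genes Htr2a and Htr7 had 5.09 ± 0.06 and 4.26 ± 0.32, and the probesets of Htr7 stayed below the threshold on at least 1 array in 6 of 6 cases. Hrh1, the histamine receptor targeted by antihistamines for allergy, had 5.93, 5.11 and 5.33, above the threshold on array 1 only. When probesets were averaged, Hrh1 passed (adjusted p = 0.000581, limma), and 1 of its 5 probesets averaged 9.41.

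The listed muscarinic, cannabinoid, neuropeptide and glycoprotein hormone receptors gave no call, where 50.6% of all genes were called. The 3 muscarinic acetylcholine receptors had 0 calls by limma, 0 genes with an unadjusted p below 0.05 and 0 genes that exceeded the threshold on each array, with 5.25 ± 0.35 (SD, n = 3) for Chrm1, 5.74 ± 0.15 for Chrm2 and 4.98 ± 0.32 for Chrm3. The same 3 counts were 0 for the cannabinoid receptors, where Cnr1, the main receptor of brain, had 5.05 ± 0.17 and Cnr2, the main receptor of blood cells, had 5.21 ± 0.17. They were also 0 for the 4 neuropeptide receptors. There the neuropeptide Y receptor gene Npy1r had 5.69 ± 0.18, the substance P receptor gene Tacr1 5.50 ± 0.46, the galanin receptor gene Galr1 4.58 ± 0.32 and the melanocortin receptor gene Mc4r 5.41 ± 0.09. The calcium-sensing receptor gene Casr, which parathyroid cells use to measure serum calcium, had 5.81, 5.58 and 5.24 on arrays 1, 2 and 3, above the threshold on array 1 only. The thyrotropin receptor gene Tshr had 4.47 ± 0.08, and this class of 2 genes and the single adenosine receptor also had 0 for all 3 counts. A missing call does not show that a transcript was absent. Neuropeptide receptors outside the list included called genes, 1 of them the melanocortin receptor gene Mc5r, described with the pathway genes. The others, picked out after their values were seen, were the galanin receptor gene Galr3 (7.05 ± 0.21, adjusted p = 7.93e-05 in limma) and the somatostatin receptor gene Sstr4 (6.74 ± 0.05, adjusted p = 0.000386 in limma). Most measured relatives outside the list were not called: Npy2r, Npy5r, Tacr2, Tacr3, Galr2, Mc1r, Mc3r, Sstr1, Sstr2, Sstr3 and Sstr5.

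Single probesets disagreed with the gene value in both directions. In the 17 called receptors 115 of 169 probesets (68.0%) lay above the threshold on all 3 arrays, and in the 33 not called 101 of 335 (30.1%) did. These shares follow in part from the median that defined the call. Of the 33 not called, 29 had at least 1 probeset above the threshold on all 3 arrays, and 4 had none (Htr7, Agtr2, Oxtr and Galr1). The widest case was Adra1b, whose 11 probesets had means from 1.96 to 12.42 around a gene value of 5.76.

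The receptors varied between the 3 arrays about as much as other genes. The median gene's range over the 3 arrays was 0.51 among the receptors and 0.51 among all genes (log2 scale). A range above 1 was seen in 9 of 50 receptors and in 15.8% of all genes. Those 9 were Ednrb, P2ry14, Agtr1a, Vipr2, Lpar4, Avpr1a, Htr2b, Ptger3 and Lpar6, with ranges from 2.10 for Ednrb to 1.04 for Lpar6.

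Array 2 was the lowest of the 3 for 22 of 50 receptors and for 32.9% of all genes. Array 3 was lowest for 18 receptors (36.9% of all genes) and array 1 for 10 (30.2% of all genes). The count for array 2 fell to 13 of 50 when genes were summarised by the 75th percentile of their probesets. Among endothelial markers array 2 was lowest for 16 of 16 genes. Their list median was 7.37, 6.05 and 7.73 on arrays 1, 2 and 3, and the log2 of their summed linear level was 11.81, 10.15 and 12.16. The endothelial cadherin gene Cdh5 had 9.14, 6.05 and 9.58, and no endothelial marker was at 0. Ednrb, Avpr1a, Lpar4, Lpar6 and S1pr1 were among the 22 receptors lowest on array 2. So were the called Drd4, Hrh2, Ptgir and Adcyap1r1, and receptors not called such as Oxtr and Tshr. The part of endothelial RNA in the values of these receptors was not tested. P2ry14, Htr2b and S1pr3 were lowest on array 3, and Agtr1a was highest on array 2. The smooth muscle and pericyte list had medians of 7.17, 6.26 and 6.37, and the log2 of its summed level was 10.91, 10.48 and 10.83.

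**Figure D3:**
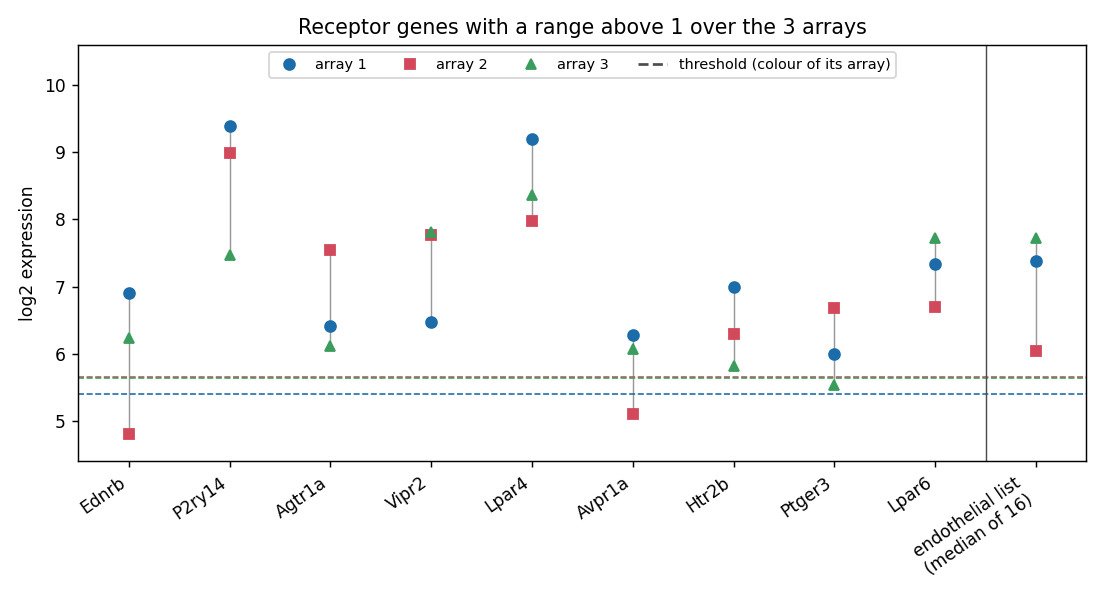
Log2 expression on each array of the 9 receptor genes with a range above 1, and at the right the median of the 16 endothelial markers; dashed lines are the chemosensory thresholds. Ednrb, Lpar4, Avpr1a and Lpar6 are lowest on array 2, as the endothelial median is (6.05), while P2ry14, Agtr1a, Htr2b and Ptger3 are lowest on array 3 and Vipr2 on array 1.

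Genes of the proteins that carry the receptors' signals were called in shares above the receptors' 34.0%, but several lists lay near the 50.6% of all genes. Of 13 G protein alpha subunit genes 9 were called (69.2%), with Gnai2, a subunit of Gi, at 10.25, 10.03 and 9.75 on arrays 1, 2 and 3. Gna11, of the Gq family, had 9.06 ± 0.71 (SD, n = 3) and Gnai3 had 8.82 ± 0.32, while Gna15, a Gq family gene of blood cells, had 5.13 ± 0.10 and was not called. Beta and gamma subunits were called in 12 of 15 cases (80.0%), with Gnb1 at 9.97 ± 0.32 and Gng5 at 8.92 ± 0.47. The difference between these lists and the receptors was not tested.

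Among adenylyl cyclases and phospholipases C beta 7 of 13 genes were called (53.8%), a share near that of all genes. The cyclase gene Adcy2 had 8.99, 9.08 and 8.93 on arrays 1, 2 and 3, and Adcy8 had 4.43 ± 0.04 (SD, n = 3). The genes that act on cyclic AMP or respond to it were called in 13 of 20 cases (65.0%), such as Prkar1a, a regulatory subunit of protein kinase A, with 8.70 ± 0.48 and the phosphodiesterase gene Pde7b with 8.53 ± 0.26. Of 7 genes of receptor kinases and arrestins, which switch receptors off, 4 were called (57.1%), with Grk5 at 7.69 ± 0.29 and Arrb2 at 6.77 ± 0.54. RGS genes, whose products speed up the shutdown of G proteins, were called in 8 of 14 cases (57.1%). Rgs2 had 9.53 ± 0.90, and Rgs5, known from pericytes, had 8.39, 8.25 and 6.37 on arrays 1, 2 and 3, lowest on array 3.

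Genes of ligand precursors and ligand-making enzymes were called in 16 of 37 cases, a share of 43.2% beside 50.6% for all genes. Kng1, whose product is the precursor of bradykinin, had 10.40, 10.71 and 10.20 on arrays 1, 2 and 3. Agt, which encodes the precursor of angiotensin, had 10.06, 9.93 and 10.02, and Ptges3, a chaperone cofactor that also has prostaglandin E synthase activity, had 9.92 ± 0.24 (SD, n = 3). The parathyroid hormone gene Pth had 2.30 ± 0.41. Of the 5 accessory protein genes 3 were called, among them Ramp2, which pairs with the calcitonin receptor-like receptor, with 7.52, 7.21 and 8.86. That receptor, encoded by Calcrl, had 8.62, 8.20 and 9.22 and passed both thresholds, and like Ramp2 it was lowest on array 2. Mc5r, a melanocortin receptor outside the list, also passed both, with 8.87, 9.14 and 9.53.

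**Figure D4:**
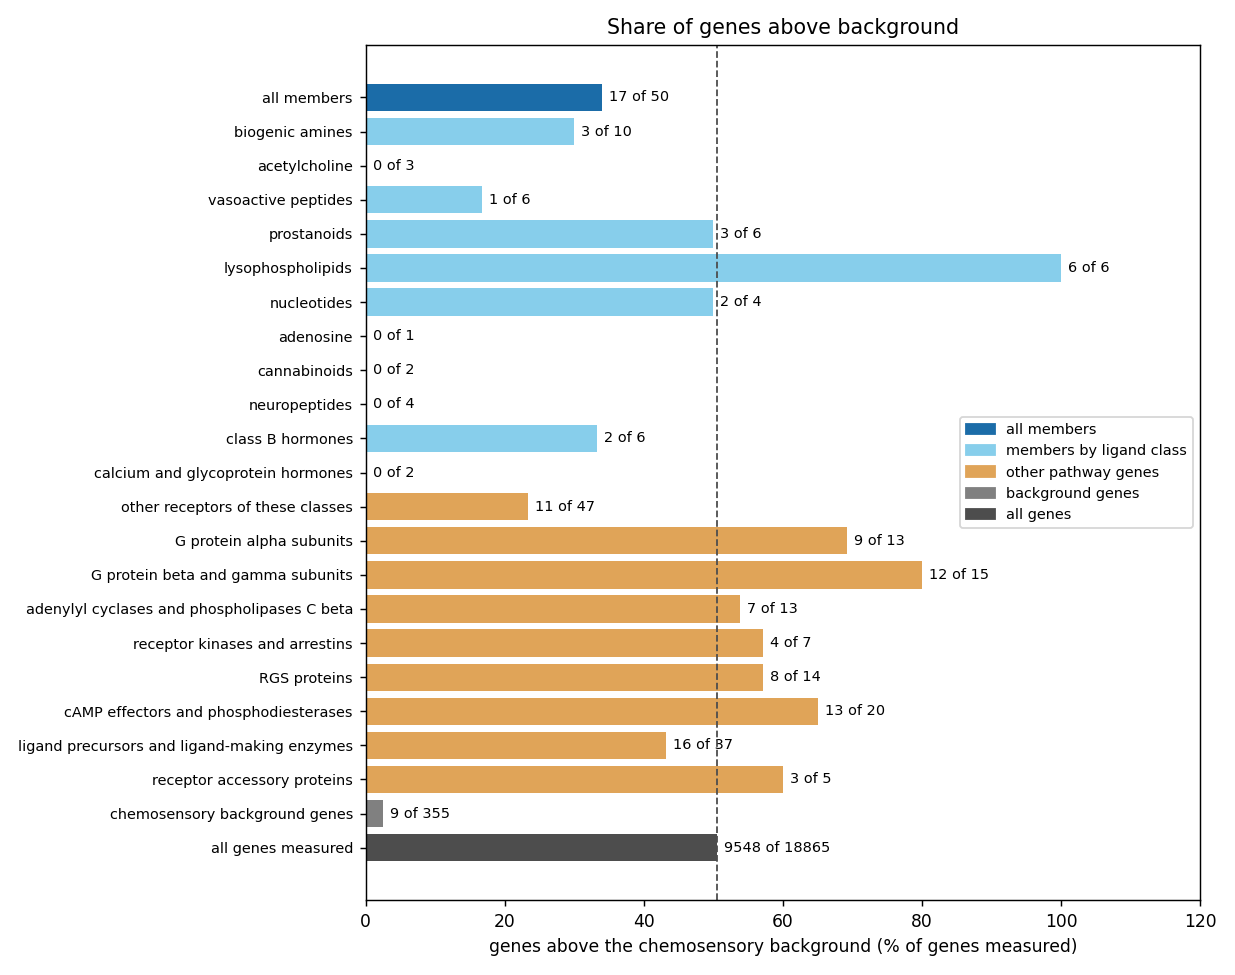
Share of measured genes above the chemosensory background for the 50 receptors, their ligand classes, the other pathway lists, the background genes and all genes, with counts beside the bars; the dashed line marks the 50.6% of all genes. The listed lysophospholipid receptors reach 6 of 6, while muscarinic, adenosine, cannabinoid, neuropeptide, and calcium and glycoprotein hormone receptors have 0.

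Promoter windows of the receptors were read from RefSeq (GRCm38.p6) as the 250 bases before a gene's start, taking the window with the most CG where a gene had several. They were found for 42 of the 50 receptors. The letters searched were CG, which reads the same on both strands, and GGGCGG on either strand, the core of the GC box, which itself contains 1 CG. CG is the site of DNA methylation, and promoters dense in CG are typical of broadly expressed genes. Windows are shown for S1pr3, the called receptor with the widest margin, for Lpar6, the called receptor with the fewest CG, and for Htr7, the receptor with the most CG, which was not called; these were chosen after their values were seen. Each is written 5′ to 3′ on the gene's strand with CG in capitals.
S1pr3 (chr13:51408368-51408617, + strand): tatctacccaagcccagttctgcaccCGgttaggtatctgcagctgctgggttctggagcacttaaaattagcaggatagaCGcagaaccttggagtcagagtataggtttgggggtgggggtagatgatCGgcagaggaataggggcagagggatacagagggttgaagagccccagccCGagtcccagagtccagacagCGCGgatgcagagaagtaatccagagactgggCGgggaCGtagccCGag
Lpar6 (chr14:73237641-73237890, + strand): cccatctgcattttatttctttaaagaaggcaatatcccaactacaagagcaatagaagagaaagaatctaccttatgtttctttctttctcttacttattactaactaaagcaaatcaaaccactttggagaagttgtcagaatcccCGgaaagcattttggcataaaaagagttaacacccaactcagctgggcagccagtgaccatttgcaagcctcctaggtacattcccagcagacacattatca
Htr7 (chr19:36057361-36057610, - strand): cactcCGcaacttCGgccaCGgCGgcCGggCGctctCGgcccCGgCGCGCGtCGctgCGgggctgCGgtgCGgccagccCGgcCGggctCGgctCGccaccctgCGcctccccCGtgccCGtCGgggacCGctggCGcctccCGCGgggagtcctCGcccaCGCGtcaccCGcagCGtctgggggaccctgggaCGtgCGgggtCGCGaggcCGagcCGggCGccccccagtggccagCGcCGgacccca

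The windows held 9 CG for S1pr3, 1 for Lpar6 and 41 for Htr7. The median was 10 CG in the 15 called receptors with a window and 12 CG in the 27 not called, the lower median in the called receptors. Over all genes with a window the medians were 17 CG for 7620 called genes and 7 CG for 7153 not called. The ratio of observed CG to the CG expected from a window's C and G content gave the receptors the other order. Its median was 0.595 in called receptors and 0.549 in those not called, beside 0.761 and 0.413 over all genes. The order of the receptor medians thus depended on the measure. Other receptors with dense windows and no call were the cannabinoid receptor gene Cnr1 (36 CG), Hrh1 (32 CG) and Vipr1 (30 CG). Called receptors with sparse windows included Htr2b and Lpar4 (3 CG each) and P2ry14 (4 CG). GGGCGG was present in 11 of the 15 called receptors and 12 of the 27 not called, beside 63.4% of called and 37.0% of not called genes in all, and in 50.6% of all 14773 windows. A match describes these letters in this window and shows neither a bound site nor a cause, and the difference between receptors and other genes was not tested.

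**Figure D5:**
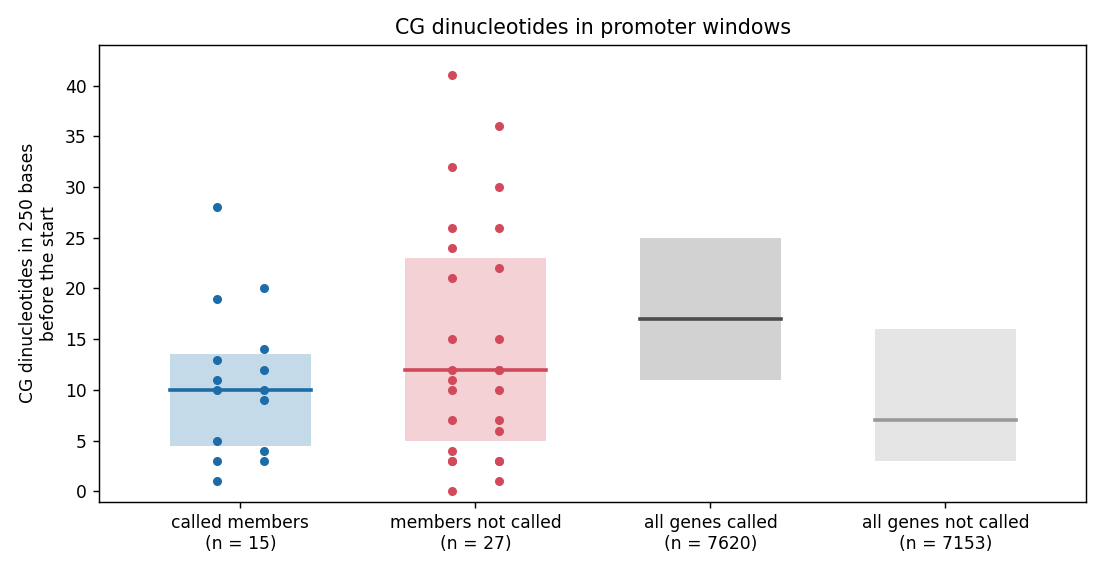
CG dinucleotides in the 250 bases before the start, for called receptors (n = 15), receptors not called (n = 27), all called genes (n = 7620) and all genes not called (n = 7153). Points are single receptor genes, lines are medians (10, 12, 17 and 7) and boxes span the quartiles.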

How the data were processed

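The authors deposited 1 log2 value per probeset and array, computed in Affymetrix Expression Console 1.1 by RMA, which corrects background, normalises between arrays and summarises probes; the tool is named per the submitters' processing notes. The sources used here give neither its settings nor an annotation build. Each array held 1256831 probesets, with medians of 5.20, 5.22 and 5.24. The 3 arrays limit the precision, and no read depth applies. Each array held 20744 probesets at exactly 0, none of them in a receptor gene.

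A platform table named 318760 probesets with 1 symbol, and former symbols were updated through RefSeq synonyms (GRCm38.p6). limma 3.58.1 in R 4.3.3 was fitted with an intercept only. It moves each gene's variance toward that of all genes (prior degrees of freedom 6.05), so the SDs given are not the spread tested. On simulated data of 18865 genes it called 27 of 50 genes placed 0.5 above the threshold, 45 of 50 placed 1 above, 49 of 50 placed 2 above and 1 of 50 placed at it. Receptors, lists, alternatives and naming rules (every assessed receptor; per pathway list up to 3 called genes with the largest margin and the 1 with the smallest) were chosen with earlier results of these data known. Alternatives were another summary of probesets, filter, threshold, normalisation, variance model and each array left out.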

Additional observations from a re-analysis of the deposited data

How the results depend on the processing

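The count of called receptors was 17 of 50 and lay between 12 and 22 under 10 of the 11 alternatives. The 12 were of only 30 receptors with at least 8 probesets, a filter under which 60.2% of all genes were called. The count was 6 with the 99th percentile of the background genes as threshold, where all genes gave 3797 calls in place of 9548. Those 6 were S1pr1, S1pr3, Lpar1, Lpar4, P2ry14 and Ptgfr, which were called under every alternative that measured them. Leaving out each array in turn gave 13 to 17 receptors, and 13 of the 17 kept their call each time. The exceptions were Htr2b, Hrh2, Ptger4 and Ptgir. In the fit without array 2, limma gave every gene 1 common variance, so its p-values do not reflect a gene's own spread. Against the other-tissue threshold 4 receptors passed (2839 of all genes), and 8 under the 75th percentile over probesets (4671 of all genes). With at least 8 probesets 13 passed (8926 of all genes), where 23 of 28 background genes were left. The other-tissue threshold was then 5.51, 5.43 and 5.42 on arrays 1, 2 and 3, and the chemosensory threshold 5.21, 5.68 and 5.35. With the 99th percentile of the other-tissue background 1679 genes passed, in a fit that also gave every gene 1 common variance. Array 2 was lowest for 22 receptors, for 13 under the 75th percentile over probesets and for 13 of the 30 receptors with at least 8 probesets.

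With the 99th percentile threshold the margins of 7 called receptors turned negative, with -0.51 for Drd4, -0.42 for Htr2b, -0.74 for Hrh2, -0.10 for Agtr1a, -0.54 for Ptger4, -0.75 for Ptgir and -0.41 for P2ry1. That of Hrh2 was -0.04 (-0.035) under the 75th percentile over probesets. Below the threshold as reported but called otherwise were Hrh1 (0.91 with the mean over probesets and 0.76 with the 75th percentile), P2ry6 (0.51 with the mean) and Vipr1 (0.43 with the 75th percentile). The cause of these changes was not tested. Of the 33 receptors not called, 24 were called under none of the alternatives. No paired analysis was possible because the samples form 1 group.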
